A study of Homo sapiens with 24 samples.

Results

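Gene expression was compared between the second and the first biological replicate of H1299 cells within 1 batch. H1299 is an established human line of non-small cell lung carcinoma. The comparison used 8 of the 24 RNA-seq libraries of the series, 4 of biological replicate 2 in batch 2 (called 2-2) and 4 of biological replicate 1 in batch 2 (called 1-2). They were chosen by their labels and matched by construct. Within each set of 4, 1 library came from cells with the FLAG-tagged empty vector (Ctr), 1 from cells with FLAG-tagged wild-type SIRT6 (WT), and 1 each from cells with the K3R and the K3Q form. K3R and K3Q are an acetylation-deficient and an acetylation-mimetic mutant, and the labels do not give which lysines they change. All cells, Ctr included, had been stably transduced with lentivirus and grown in RPMI1640 medium with fetal bovine serum. Whether a transduced line was a pool or a clone is not given in the sources used here. The promoter of the vector is not given there either, and the labels name no further treatment of these 8 libraries. The other 16 libraries were 4 of H1299 biological replicate 1 in batch 1 (called 1-1) and 12 of A549 cells, a second lung carcinoma line.

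SIRT6 is an NAD-dependent deacylase of chromatin that limits transcription of, among others, glycolytic and ribosomal protein genes. Several programmes known to follow the state of a culture are read in the same libraries. The transcription factor ATF4 is translated when amino acids run short or the endoplasmic reticulum is stressed, and it switches on amino acid transporters, tRNA synthetases and regulators such as DDIT3 and TRIB3. TFEB and TFE3 switch on genes of the lysosome, the compartment that degrades proteins and lipids, through a motif called CLEAR. E2F factors switch on DNA replication genes as cells pass from G1 into S phase. The question was which of these and other genes differed between the biological replicates when the labels of construct and batch were held the same.

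Replicate 2-2 was set apart from 1-2 by a broad but mostly modest shift. Of 16240 genes tested, 1919 passed an adjusted p of 0.05 in either direction by edgeR's quasi-likelihood test with Benjamini-Hochberg adjustment, which is 11.8% of them. Of these, 1191 genes (7.33%) rose and 728 (4.48%) fell in 2-2. With an offset for transcript GC content, chosen after seeing the data, the split was 1413 against 1358. Rises reached further than falls, with 341 genes called higher by over 2-fold against 8 called lower by over 2-fold. The median absolute log2 change of the called genes was 0.519, and the median log2 change of all genes tested was 0.019. The direction was the same in all 4 construct-matched pairs for 1094 of the 1191 and 702 of the 728. The 4 libraries of 2-2 did not overlap the 4 of 1-2 for 1215 of the 1919. Over all 16240 genes tested, 2-2 lay wholly above 1-2 for 1041 and wholly below for 1161. The calls rest on the same libraries, so shared direction and separation among called genes follow in part from the calling. The labels call the replicates biological but do not say that they were separate cultures, so their difference may be technical. With a single library per construct and replicate, the p-values rest on how far that difference varied between the 4 constructs. They do not measure the spread between biological replicates.

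**Figure D1:**
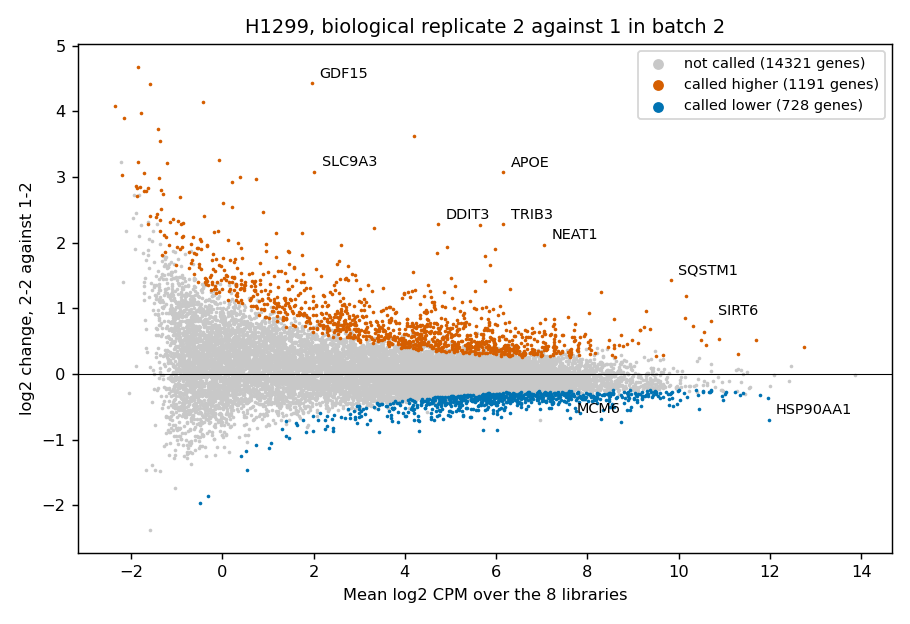
Each point is 1 of 16240 genes, with its mean log2 CPM (read counts scaled to library size) over the 8 libraries on the x axis and its log2 change in 2-2 against 1-2 on the y axis. The 1191 genes called higher (orange) reach to larger changes than the 728 called lower (blue).

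The libraries held 14943189 to 20237931 counts each. Genes with 10 or more counts averaged 15142 in 1-2 and 15570 in 2-2, more in 3 of 4 pairs (exact two-sided permutation p = 0.25). On a principal component analysis of log2 CPM, component 1 carried 40.24% of the variance and placed WT 2-2 (52.54) and K3R 2-2 (46.07) far from the others, which lay between -43.67 and 8.04. Component 2 carried 20.56% and separated the replicates, at 4.89 to 43.88 in 2-2 and -26.41 to -10.38 in 1-2. Construct took 51.58% of the variance of log2 CPM, replicate 23.99% and the residual 24.43%. Across 16240 genes the log2 differences of the WT and K3R pairs had a Pearson r of 0.537, and those of the WT and K3Q pairs 0.116, as a description, since genes are not replicates. The count of calls was 497 without the Ctr pair, 1099 without WT, 676 without K3R and 3405 without K3Q. In the same order, 412, 760, 541 and 1852 genes were called higher and 85, 339, 135 and 1553 lower. List counts with a pair left out, given below, are to be read beside these totals. Every called gene that could still be tested kept its sign in each of these 4 fits, which reuse pairs that gave the calls. Called again with the same sign were 488, 991, 663 and 1818 of the 1919.

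**Figure D2:**
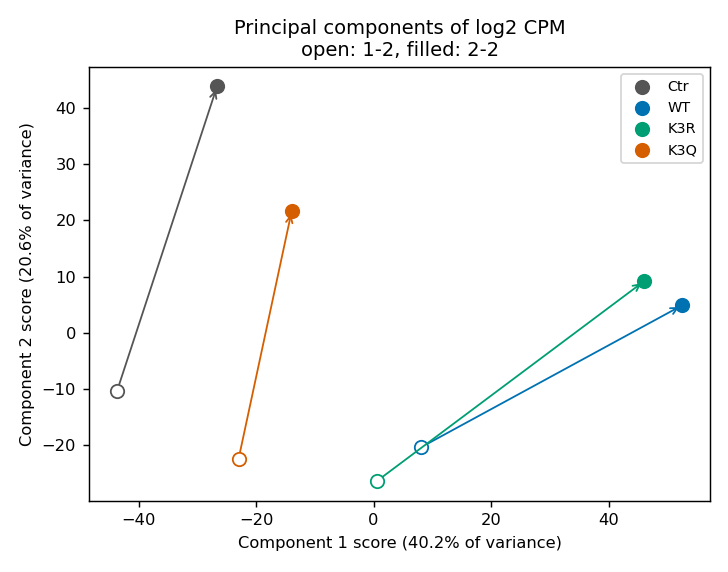
Scores of the 8 libraries on principal components 1 and 2 of log2 CPM, with 1 open point (1-2) and 1 filled point (2-2) per construct joined by an arrow. All 4 arrows run upward on component 2, and those of WT and K3R also run far to the right.

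SIRT6 itself, the gene carried by the vector, matched the labels and was also higher in 2-2. In the order Ctr, WT, K3R and K3Q, which is kept below, its level was 34.5, 2465, 2737 and 11190 CPM in 1-2 and 38.9, 6791, 6069 and 14480 CPM in 2-2. Ctr was far below the 3 SIRT6 lines in both replicates, and each line was higher in 2-2 than its partner. Replicate and SIRT6 level therefore differ together in the SIRT6 lines, most in WT and K3R, and cannot be told apart there. The log2 change of SIRT6 was 0.81 (SE 0.16, adjusted p = 0.00734), with pair differences of 0.17, 1.46, 1.15 and 0.37. Against 1-1 it was 0.38 (adjusted p = 0.185), and by DESeq2 the adjusted p against 1-2 was 0.0698. Of the other sirtuins, SIRT1, SIRT2, SIRT3, SIRT5 and SIRT7 did not pass the test, and SIRT4, at up to 0.595 CPM, was too low to be tested. SIRT2 was nearest, at a log2 change of 0.30 (adjusted p = 0.0721).

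The largest rise among genes with a mean log2 CPM of at least 1 was that of GDF15, a secreted stress cytokine (chr19:18386158-18389176, plus strand, RefSeq GRCh38.p14). Its level was 0.414, 0.723, 1.10 and 1.01 CPM in 1-2 and 42.4, 9.45, 11.9 and 17.2 CPM in 2-2. Every 2-2 library lay above every 1-2 library, and Ctr 2-2 was the highest. The log2 change was 4.43 (SE 0.35, adjusted p = 2.4e-05). APOE, the lipid carrier apolipoprotein E (chr19:44905796-44909393, plus strand), stood at 10.2, 32.5, 27.7 and 38.9 CPM in 1-2 and 108.0, 310.1, 323.7 and 168.8 CPM in 2-2. It too did not overlap, with a log2 change of 3.07 (SE 0.19, adjusted p = 2.21e-06), and WT and K3R were highest in 2-2. SLC9A3, a sodium-proton exchanger of epithelia (chr5:470456-524449, minus strand), was at 1.12, 1.11, 1.35 and 1.79 CPM in 1-2 and 11.9, 10.4, 11.7 and 11.1 CPM in 2-2. Its 4 pairs were nearly equal in size, and the log2 change was 3.08 (SE 0.19, adjusted p = 2.21e-06). The antisense gene SLC9A3-AS1 (chr5:473236-480892, plus strand), chosen after its values were seen, rose from 4.52 to 5.84 CPM in 1-2 to 59.9 to 67.4 CPM in 2-2, and the strand setting of the counting is not given in the sources used here, so reads of the pair cannot be told apart. NEAT1, a nuclear long noncoding RNA that builds paraspeckles, rose from 55.1 to 78.3 CPM to 158.0 to 497.6 CPM (log2 change 1.97, SE 0.22, adjusted p = 0.000212). The other rises that the rule named were TRIB3, DDIT3, DDIT4, ADM2, CHAC1 and the glycine transporter SLC6A9, together with the endothelial receptor ROBO4 (log2 change 2.15) and the vesicular glutamate transporter SLC17A7 (2.14). SLC17A7 overlapped between the replicates, since Ctr 2-2 at 2.54 CPM lay under WT 1-2 at 3.004 CPM.

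The named rises were also measured in 1-1, the libraries of replicate 1 from batch 1, where replicate and batch differ together from 2-2. Over all 16846 genes tested against 1-1, 1104 were called higher and 940 lower in 2-2, with a median log2 change of 0.018. The list counts against 1-1 given below are to be read beside these. With CPM scaled over the 12 H1299 libraries, GDF15 was at 1.89 to 3.08 CPM in 1-1, and its log2 change of 2-2 against 1-1 was 2.80 (adjusted p = 5.1e-05). APOE was at 53.6 to 111.2 CPM in 1-1, with a change of 1.28 (adjusted p = 0.000646), and SLC9A3 at 2.03 to 3.23 CPM, with a change of 2.05 (adjusted p = 3.53e-05). All 3 were lower in 1-2 than in 1-1, and the distance from 2-2 to 1-1 was the smaller one. Of the other named rises, DDIT4 (log2 change 0.56, adjusted p = 0.399), SLC6A9 (0.29, adjusted p = 0.558) and ADM2 (0.93, adjusted p = 0.0685) were not called against 1-1. Libraries 1-2 against 1-1, which share the label biological replicate 1 and differ in batch, had 3511 genes called (21.1% of 16659), 1831 higher (11%) and 1680 lower (10.1%). The count was 1756 without the K3R pair and 2164 without the K3Q pair. That comparison shares the 1-2 libraries with the main one.

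**Figure D3:**
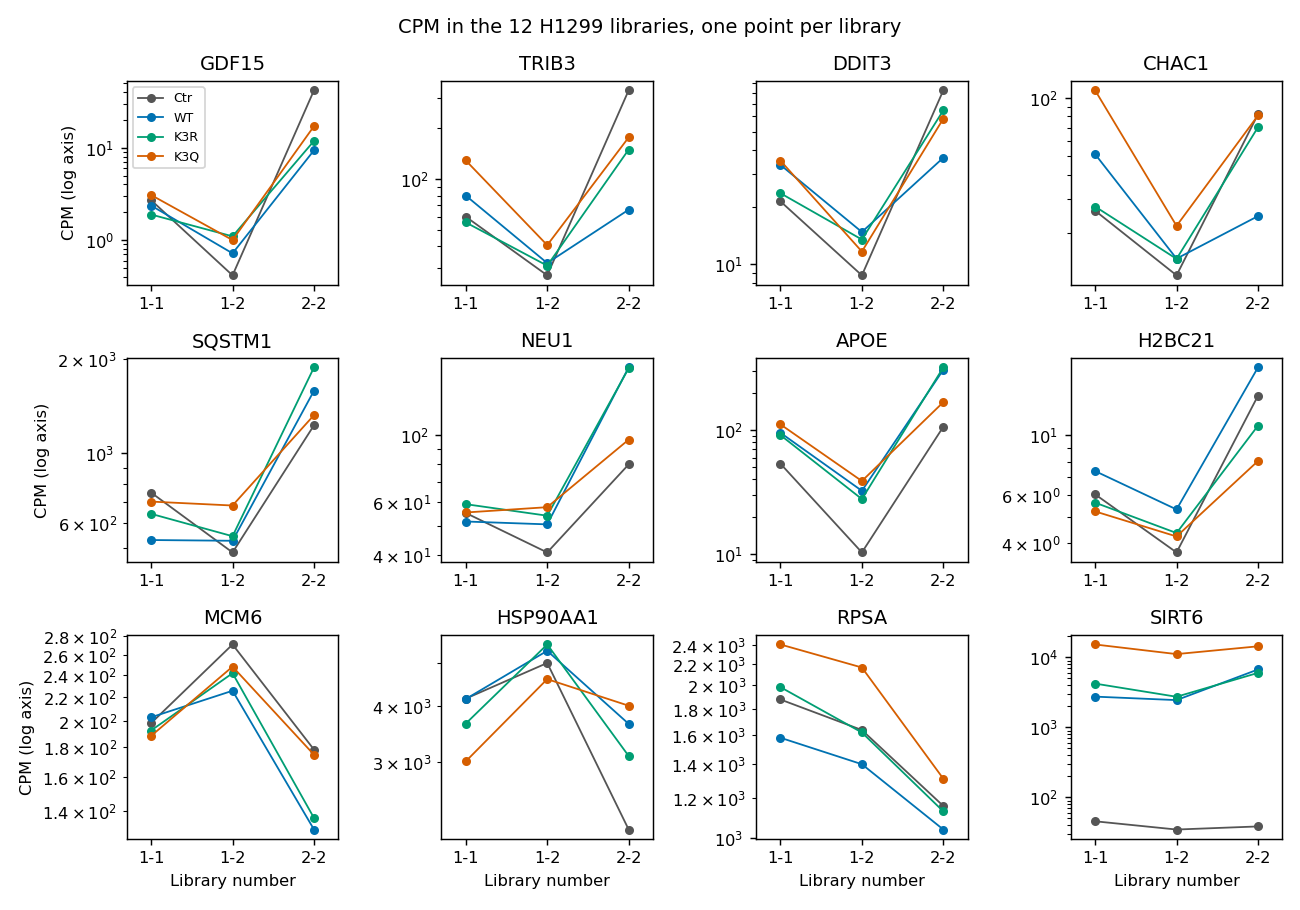
CPM on a log axis in the 12 H1299 libraries, with 1 panel per gene, 1 point per library and 1 line per construct across 1-1, 1-2 and 2-2. GDF15, TRIB3 and APOE dip in 1-2 and peak in 2-2 in most lines, NEU1 is near level in 1-1 and 1-2 and higher in 2-2, and MCM6 and HSP90AA1 peak in 1-2.

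ATF4 and amino acid response genes rose, most in Ctr, and the WT pair had a median near 0. With 1 pair per construct, the differences between constructs have no replicate. Of 36 tested, 25 were called higher and 0 lower, and the median log2 change was 0.648 against 0.019 over all genes. The pair medians were 1.261, 0.002, 0.63 and 0.876, and 35, 18, 34 and 35 of the 36 members were higher in those pairs. The called genes covered several roles: the stress factor DDIT3 and its pseudokinase partner TRIB3, the mTORC1 inhibitors DDIT4 and SESN2, the glutathione-degrading enzyme CHAC1, the asparagine synthetase ASNS, the cystine transporter SLC7A11 and the alanyl-tRNA synthetase AARS1. ATF4 mRNA itself was not called, at a log2 change of 0.37 (adjusted p = 0.068).

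TRIB3 (chr20:380760-397559, plus strand) was at 26.9, 32.0, 30.8 and 40.8 CPM in 1-2 and 340.4, 66.6, 150.9 and 177.3 CPM in 2-2. DDIT3 (chr12:57516588-57520517, minus strand) was at 8.70, 14.9, 13.5 and 11.7 CPM in 1-2 and 83.7, 36.7, 65.2 and 58.7 CPM in 2-2. In both genes the replicates did not overlap, Ctr was the highest and WT the lowest of 2-2, and the log2 changes were 2.28 (SE 0.28, adjusted p = 0.000433) and 2.28 (SE 0.22, adjusted p = 9.44e-05). CHAC1 stood at 12.1, 14.9, 14.7 and 21.9 CPM in 1-2 and 83.4, 24.7, 71.0 and 81.3 CPM in 2-2, again with WT the lowest of 2-2 (log2 change 1.94, SE 0.23, adjusted p = 0.000339). DDIT4, TRIB3, ADM2, SESN2, SLC7A11 and ALDH1L2 were the genes with a mean log2 CPM of at least 3 whose pair differences spread most. For DDIT4 these differences were 3.94, 0.51, 1.94 and 2.55, and for ALDH1L2, a mitochondrial folate enzyme, 2.16, -0.19, 0.62 and 1.28. In each of the 6 the Ctr pair had the largest difference and the WT pair the smallest.

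The size of this rise rested on which libraries of replicate 1 it was set against. Against 1-1, 4 of 37 ATF4 and amino acid response genes were called higher and 0 lower, and the median log2 change was 0.109. Over all genes, 1104 of 16846 were called higher in that comparison. Between 1-2 and 1-1, 31 of 36 were lower and 0 higher in 1-2, with a median of -0.581. TRIB3 was at 55.5 to 129.0 CPM in 1-1 and its change against 1-1 was 1.02 (adjusted p = 0.0457), while that of CHAC1 was 0.39 (adjusted p = 0.501). SESN2 (0.64, adjusted p = 0.208), SLC7A11 (0.22, adjusted p = 0.729) and ALDH1L2 (0.08, adjusted p = 0.891) were not called against 1-1 either. Without the Ctr pair, 11 of the genes were called higher against 1-2, and SLC7A11 and ALDH1L2 were no longer called (adjusted p = 0.141 and 0.212). ALDH1L2 was also lost without the K3Q pair.

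The promoter of CHAC1 is shown because it is the called member with the largest change that holds a match to an ATF4 motif. The composite element TGATGNAAT, or its reverse complement ATTNCATCA, was in 0 of 32 promoters of tested members, where a promoter is RefSeq's window of 300 bases, 250 before and 50 after the start. The shorter TGATGNAA, or TTNCATCA, searched after the first gave none, was in 5 of 32 (15.6%), in 3 of the 23 called members (13.0%) and in 1.65% of the 11173 promoters of genes tested (3.67% of all 27305). It lies inside the longer motif. The 250 bases before the start, at chr15:40953221-40953470 on the plus strand of GRCh38.p14, are given with the match in capitals.
CHAC1: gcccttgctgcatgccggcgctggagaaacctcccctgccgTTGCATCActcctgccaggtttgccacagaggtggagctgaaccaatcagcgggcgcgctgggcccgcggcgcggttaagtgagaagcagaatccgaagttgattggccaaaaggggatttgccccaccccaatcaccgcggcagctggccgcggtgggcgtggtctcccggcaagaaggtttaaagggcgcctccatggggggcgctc

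Lysosome genes rose, with a positive median in all 4 pairs. Of 29 tested, 20 were called higher and 0 lower, all 29 had a positive log2 change, and the median was 0.461, with pair medians of 0.402, 0.518, 0.665 and 0.402. SQSTM1, the autophagy receptor p62 (chr5:179806393-179838078, plus strand), was at 481.9, 529.8, 544.6 and 684.9 CPM in 1-2 and 1248, 1598, 1895 and 1330 CPM in 2-2. NEU1, the lysosomal sialidase (chr6:31857659-31862821, minus strand), was at 40.5, 50.7, 53.9 and 57.8 CPM in 1-2 and 81.2, 169.9, 168.7 and 97.1 CPM in 2-2. Neither gene overlapped between replicates, and WT and K3R were the highest of 2-2 in both. Their log2 changes were 1.43 (SE 0.11, adjusted p = 2.4e-05) and 1.29 (SE 0.14, adjusted p = 0.000212). GPNMB, a lysosomal membrane glycoprotein, had 0 to 0.0556 CPM in 1-2 and 0.403 to 1.13 CPM in 2-2, a level too low for a fold to be given. LAMP1, a major membrane protein of the lysosome, was at 125.3 to 146.0 CPM in 1-2 and 156.4 to 212.0 CPM in 2-2 (log2 change 0.38, SE 0.09, adjusted p = 0.0182). MCOLN1, its calcium channel, was at 24.6 to 26.6 CPM and 28.5 to 41.2 CPM (log2 change 0.42, SE 0.11, adjusted p = 0.032).

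Set against 1-1, 14 of 29 lysosome genes were called higher and 0 lower, with a median of 0.362, and NEU1 was at 51.6 to 58.9 CPM in 1-1 with a change of 1.15 (adjusted p = 0.00105). Called members numbered 11 without the Ctr pair and 12 without the K3R pair, and LAMP1 and MCOLN1 lost their calls without the Ctr, the WT or the K3R pair. MCOLN1 was also not called against 1-1 (adjusted p = 0.0924). The CLEAR core TCACGTG, or CACGTGA, was in the promoters of 5 of 14 called lysosome genes that have one in the table (35.7%) and in 6 of 19 tested (31.6%). It was in 5.84% of the promoters of genes tested, in 9.6% of those of all genes called higher and in 4.72% of those called lower. The 250 bases before the start are given for NEU1, whose change was the largest with a match, and for LAMP1 and MCOLN1, which hold several matches. They lie at chr6:31862822-31863071 (minus strand), chr13:113296989-113297238 and chr19:7522374-7522623 (both plus strand), and capitals mark the CLEAR core. TCACGTGA reads alike on both strands and counts as overlapping matches.
NEU1: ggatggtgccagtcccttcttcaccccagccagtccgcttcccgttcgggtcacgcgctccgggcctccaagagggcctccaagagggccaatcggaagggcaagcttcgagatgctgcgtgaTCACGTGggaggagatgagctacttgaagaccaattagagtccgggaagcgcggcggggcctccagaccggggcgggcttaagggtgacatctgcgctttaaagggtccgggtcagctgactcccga
LAMP1: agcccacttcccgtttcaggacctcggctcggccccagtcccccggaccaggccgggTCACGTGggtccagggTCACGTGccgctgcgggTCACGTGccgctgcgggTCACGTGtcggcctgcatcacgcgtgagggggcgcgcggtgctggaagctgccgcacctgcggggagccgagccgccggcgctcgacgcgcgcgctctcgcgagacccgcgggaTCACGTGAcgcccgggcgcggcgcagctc
MCOLN1: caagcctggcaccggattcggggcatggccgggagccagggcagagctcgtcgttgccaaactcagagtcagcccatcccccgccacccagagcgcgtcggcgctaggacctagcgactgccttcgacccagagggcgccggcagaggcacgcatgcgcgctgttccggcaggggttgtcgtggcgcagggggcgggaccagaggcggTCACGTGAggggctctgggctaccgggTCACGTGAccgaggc

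DNA replication genes of the G1/S transition fell. Of 30 tested, 22 were called lower and 0 higher, and the median log2 change was -0.354, with pair medians between -0.4 and -0.323. MCM6, a subunit of the replicative helicase (chr2:135839626-135876443, minus strand), was at 269.9, 226.6, 241.6 and 249 CPM in 1-2 and 181.1, 131.0, 137.1 and 175.5 CPM in 2-2. The replicates did not overlap, and the log2 change was -0.67 (SE 0.08, adjusted p = 0.000539). MCM10 and GINS2, which help activate the loaded helicase, changed by -0.66 (SE 0.10, adjusted p = 0.00167) and -0.65 (SE 0.08, adjusted p = 0.000553). Against 1-1, 13 of 30 were called lower and 0 higher, with a median of -0.289, and the change of MCM6 was -0.35 (adjusted p = 0.0424), while MCM10 was not called (-0.30, adjusted p = 0.0961). The count against 1-2 was 8 without the Ctr pair, 14 without the WT pair and 9 without the K3R pair. Over all genes, 85, 339 and 135 were called lower there. G2/M genes moved less far, with 5 of 34 called lower, 0 higher and a median of -0.161. CDC20, the activator of the anaphase-promoting complex, changed by -0.55 (SE 0.09, adjusted p = 0.00195). The G2/M median was 0.085 against 1-1, so that its sign turned with the reference, as did the signs of ANLN and MKI67. The G2/M count was 1 without the Ctr, the WT or the K3R pair and 16 without the K3Q pair.

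An E2F site, TTGGCGC or GCGCCAA, was in the promoters of 8 of 18 called G1/S genes (44.4%) and in 4.97% of the promoters of genes tested. Among all genes called lower 7.25% held it, and among those called higher 3.79%. Matches are shown in capitals for MCM6, the member with the largest change, and for E2F1, which encodes an E2F factor and changed by -0.43 (SE 0.09, adjusted p = 0.00744; 0.0702 without the Ctr pair). Against 1-1 the change of E2F1 was -0.14 (adjusted p = 0.36). The 250 bases before the start lie at chr2:135876444-135876693 and chr20:33686386-33686635, both on the minus strand.
MCM6: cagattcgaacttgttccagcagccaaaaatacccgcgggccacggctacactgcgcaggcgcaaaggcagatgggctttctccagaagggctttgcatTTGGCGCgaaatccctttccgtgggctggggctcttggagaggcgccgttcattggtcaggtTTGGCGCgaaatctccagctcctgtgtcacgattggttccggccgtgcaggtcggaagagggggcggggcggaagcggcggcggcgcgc
E2F1: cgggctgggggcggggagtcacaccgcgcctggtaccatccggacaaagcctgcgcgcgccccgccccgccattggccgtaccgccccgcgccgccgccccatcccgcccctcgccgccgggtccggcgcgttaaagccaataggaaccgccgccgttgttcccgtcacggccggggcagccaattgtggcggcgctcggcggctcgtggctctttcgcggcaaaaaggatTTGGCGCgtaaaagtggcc

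Replication-dependent histone genes, a class whose mRNAs normally lack a poly(A) tail and peak in S phase, mostly rose. Whether the reads of the members named here came from such mRNAs was not tested. Of 9 tested, 6 were called higher and 0 lower, with a median log2 change of 1.009 and pair medians of 1.35, 1.044, 1.132 and 0.632. The log2 change was positive in 7 and negative in 2, the lowest at -0.43. H2BC21 was at 3.67, 5.34, 4.34 and 4.24 CPM in 1-2 and 14.2, 18.0, 10.9 and 8.07 CPM in 2-2, so every line was higher in 2-2 and the replicates did not overlap (log2 change 1.51, SE 0.18, adjusted p = 0.000339). H2BC5 changed by 1.64 (SE 0.21, adjusted p = 0.000547) and H2BC4 by 1.36 (SE 0.20, adjusted p = 0.00106). Near-identical copies share reads, so single histone genes are uncertain. Against 1-1, 6 of 10 were called higher, with a median of 0.743. Beside these, the share of counts from histone genes was 0.0203% ± 0.00167 (SD, n = 4) in 1-2 and 0.0343% ± 0.00723 (SD, n = 4) in 2-2, and that of MALAT1 and NEAT1 together was 0.0176% ± 0.00468 (SD, n = 4) and 0.0466% ± 0.015 (SD, n = 4). Both rose in 4 of 4 pairs, with p = 0.125 by an exact two-sided permutation test within pairs, the smallest p that 4 pairs allow. Whether RNA quality or the selection of poly(A) RNA had a part in this was not tested.

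Mitochondrially encoded mRNAs rose, with 9 of 13 called higher, 0 lower and a median log2 change of 0.439. MT-ND1, a subunit of respiratory complex I, was at 1016, 1021, 930.0 and 971.6 CPM in 1-2 and 1744, 1580, 1574 and 1631 CPM in 2-2 (log2 change 0.73, SE 0.07, adjusted p = 9.44e-05). MT-ND6 and MT-ND2 changed by 0.72 (SE 0.10, adjusted p = 0.000866) and 0.65 (SE 0.08, adjusted p = 0.000339). The share of all counts from mitochondrial genes was 2.42% ± 0.202 (SD, n = 4) in 1-2 and 3.24% ± 0.344 (SD, n = 4) in 2-2, higher in 4 of 4 pairs (exact permutation p = 0.125). Against 1-1, 4 of 13 mRNAs were called higher, and MT-ND2 was not among them (0.16, adjusted p = 0.213). Nuclear genes of oxidative phosphorylation had 0 of 50 called higher and 3 lower, with a median of -0.144. The number called lower was 0 without the Ctr or the K3R pair, 1 without WT and 8 without K3Q, and it was 12 against 1-1.

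Cytosolic ribosomal protein genes fell slightly. Of 79 tested, 22 were called lower and 0 higher, 78 had a negative log2 change, and the median was -0.22, with the K3Q pair lowest at -0.439. RPSA was at 1625, 1406, 1614 and 2173 CPM in 1-2 and 1176, 1050, 1140 and 1316 CPM in 2-2, without overlap (log2 change -0.53, SE 0.08, adjusted p = 0.00106). Against 1-1, 45 of 79 were called lower. The call count was unstable, at 2 without the Ctr pair, 9 without WT and 1 without K3R. Over all genes, 85, 339 and 135 were called lower in those fits, against 728 with all pairs. Reads of ribosomal protein pseudogenes could be shared with these genes. Genes of MYC and ribosome biogenesis had 10 of 32 called lower and 0 higher, with a median of -0.206 (1 lower without the Ctr pair, 2 without K3R and 17 without K3Q), and ODC1, the rate-limiting enzyme of polyamine synthesis, changed by -0.49 (SE 0.07, adjusted p = 0.00167). EBNA1BP2, a nucleolar ribosome assembly factor, was the fall with the highest level among the 12 that the rule named, at 537.9, 444.3, 523.4 and 743.9 CPM in 1-2 and 335.1, 263.6, 285.2 and 482.8 CPM in 2-2. It fell in each pair although the groups overlapped (log2 change -0.73, SE 0.08, adjusted p = 0.000162).

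Heat shock genes had 11 of 23 called lower and 0 higher, with a median of -0.324 and pair medians of -0.535, -0.034, -0.332 and -0.246. HSP90AA1, the inducible cytosolic HSP90 chaperone, was at 4973, 5346, 5492 and 4611 CPM in 1-2 and 2144, 3682, 3117 and 4023 CPM in 2-2. Ctr 2-2 was the lowest, and the replicates did not overlap (log2 change -0.69, SE 0.12, adjusted p = 0.00381). HSPA1B, an inducible HSP70 gene whose reads may be shared with its near-identical copy HSPA1A, changed by -0.86 (SE 0.24, adjusted p = 0.0335), and K3Q 1-2 at 212.2 CPM lay far above the other 7 libraries at 20.9 to 76.4 CPM. Against 1-1 the list had 2 called higher and 6 lower with a median of -0.005, with changes of -0.24 for HSP90AA1 (adjusted p = 0.331) and 0.61 for HSPA1B (adjusted p = 0.176). Without the Ctr pair 1 of 23 was called lower, and without K3R 5, where 85 and 135 were called lower over all genes. HSPA1B was not called without the Ctr pair (adjusted p = 0.222) or the K3Q pair (0.0844).

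**Figure D4:**
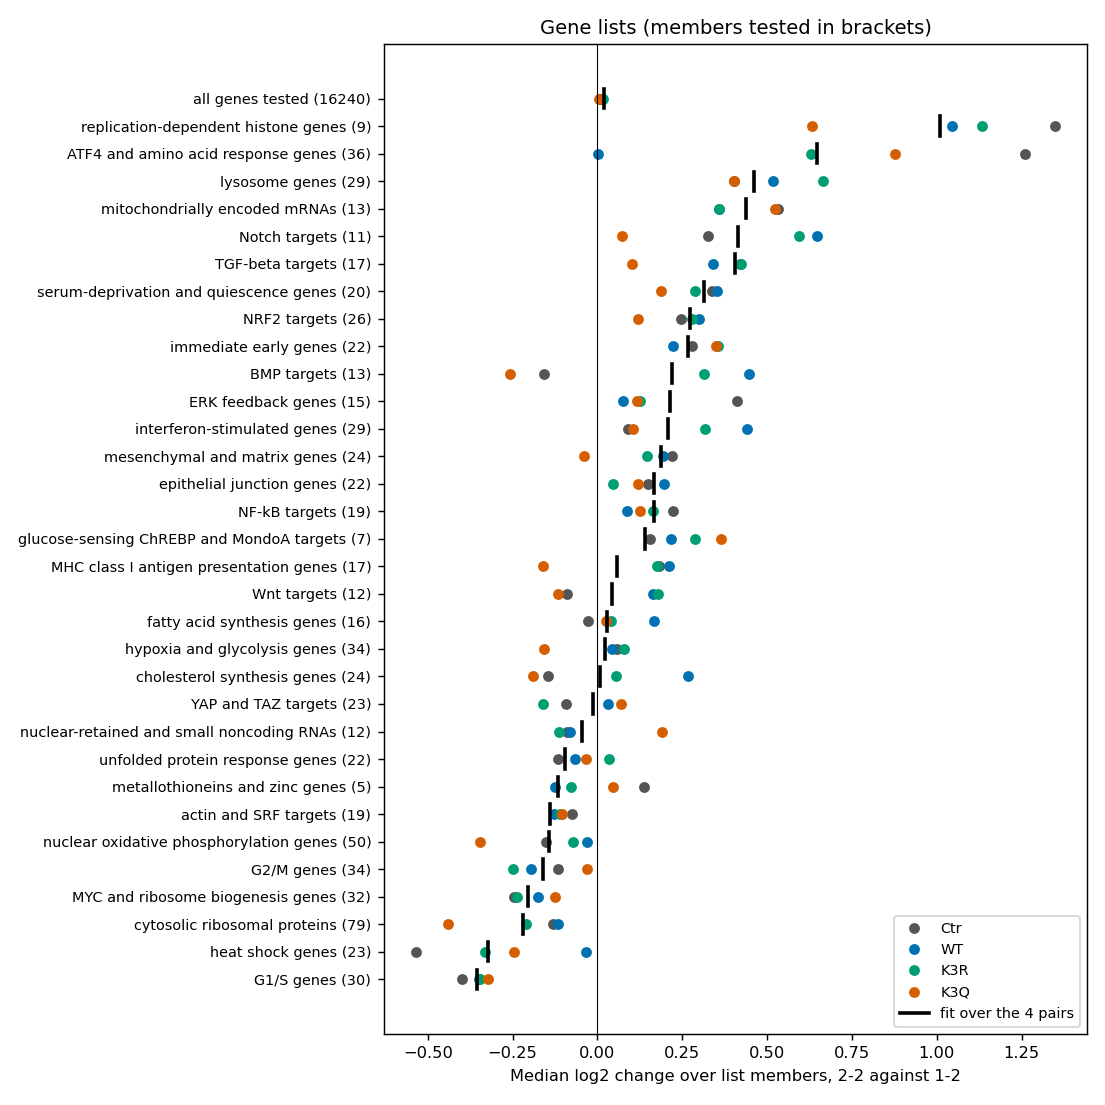
Median log2 change of 2-2 against 1-2 over the tested members of each gene list (number in brackets), with 1 point per construct-matched pair and a bar for the fit over the 4 pairs. Histone, ATF4 and amino acid response and lysosome genes stand highest and G1/S genes lowest, while the WT point of the ATF4 list lies at 0.002.

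Other signalling and stress lists moved in part. Their counts were lower without the Ctr pair, at 4 TGF-beta, 5 NRF2, 4 immediate early and 3 quiescence genes called higher, and TGF-beta and quiescence genes gave 5 and 3 without the K3R pair. TGF-beta genes gave 5 without the WT pair too. Of 17 TGF-beta targets 9 were called higher and 1 lower, with a median of 0.405, and SMAD7, the inhibitory Smad, changed by 0.84 (SE 0.12, adjusted p = 0.00106). Of 26 NRF2 targets 8 were called higher and 0 lower, with a median of 0.272. Against 1-1, 8 of 29 were called higher and 3 lower, with a median of 0.088. HMOX1, heme oxygenase 1, was at 26.6, 36.4, 32.6 and 37.1 CPM in 1-2 and 55.9, 135.8, 155.0 and 95.0 CPM in 2-2, with no overlap (log2 change 1.65, SE 0.15, adjusted p = 9.44e-05). FTL, the ferritin light chain, changed by 1.19 (SE 0.17, adjusted p = 0.00106), and its pair differences were larger in WT (1.58) and K3R (1.84) than in Ctr (0.85) and K3Q (0.46). Of 22 immediate early genes 6 were called higher and 0 lower, and ATF3, a stress-induced factor, changed by 1.07 (SE 0.11, adjusted p = 0.00015) with pair differences of 0.89 to 1.19. Of 20 serum-deprivation and quiescence genes 7 were called higher and 1 lower, led by CCNG2, an atypical cyclin of resting cells, at 1.18 (SE 0.14, adjusted p = 0.000379), though at 0.58 (adjusted p = 0.0554) against 1-1.

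Several lists had few calls against 1-2. Cholesterol synthesis genes had 0 of 24 called higher and 2 lower, and the pair medians disagreed in sign, at -0.147, 0.268, 0.056 and -0.19. Against 1-1, 12 of 24 were called lower and 0 higher with a median of -0.345, and 20 of 24 were called lower in 1-2 against 1-1. Unfolded protein response genes had 3 of 22 called higher and 3 lower, with HERPUD1, an endoplasmic reticulum degradation factor, at 0.93 (SE 0.13, adjusted p = 0.000718). The number called higher was 1 without the Ctr pair and 5 without K3Q, and HERPUD1 was at 0.35 (adjusted p = 0.116) against 1-1. Hypoxia and glycolysis genes had 5 of 34 called higher and 2 lower, with a median of 0.022. Among the 5 was SLC2A3, the glucose transporter GLUT3, at 42.5, 42.0, 39.3 and 50.8 CPM in 1-2 and 91.1, 76.9, 84.8 and 93.6 CPM in 2-2 (log2 change 0.99, SE 0.09, adjusted p = 7.39e-05). Interferon-stimulated genes had 5 of 29 called higher and 0 lower, with a median of 0.208. The number called higher was 3 without the Ctr or the K3R pair and 10 without the K3Q pair. Against 1-1, 1 of 30 was called higher and 2 lower, with a median of 0.025.

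Among the falls that the rule named, POP1, a subunit of RNase P and RNase MRP, was at 71.4, 70.3, 68.5 and 69.0 CPM in 1-2 and 29.03, 44.8, 40.8 and 41.8 CPM in 2-2. The 1-2 libraries were nearly level and all 2-2 libraries lay below them (log2 change -0.85, SE 0.11, adjusted p = 0.000629), and the change against 1-1 was -0.71 (adjusted p = 0.00272). The zinc finger genes ZNF835, ZNF100, ZNF66 and ZNF273, whose repeated domains can share reads, changed by -1.12, -0.87, -0.78 and -0.74. The remaining 6 were PCDHGA4 (-1.05), a protocadherin that shares exons with its cluster and is uncertain, TTPA (-0.97), a vitamin E carrier, GUCA1B (-0.89), a calcium sensor, SESTD1 (-0.88), LY6K (-0.83) and GK (-0.77), the glycerol kinase. Of these falls, ZNF835, PCDHGA4, TTPA, GUCA1B, LY6K and ZNF66 lost their calls with 1 or more of the pairs left out, with adjusted p-values up to 0.188 (TTPA without the Ctr pair). Against 1-1, PCDHGA4 (-0.12, adjusted p = 0.866), SESTD1 (-0.39, adjusted p = 0.203), LY6K (-0.46, adjusted p = 0.173) and ZNF66 (-0.34, adjusted p = 0.396) were not called.

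Markers of other cells were summed beside these changes. In bulk RNA, a change in the number of cells of a kind and in RNA per cell cannot be told apart. Markers of A549 cells summed to 33.6 to 34.2 CPM in 1-2 and 34.9 to 41.4 CPM in 2-2, with FGA, FGB, FGG, ALDH3A1 and MUC5B at 0 in all 8 libraries. Immune markers summed to 5.44 to 7.69 and 5.997 to 7.55 CPM, with CD3E at 0, and fibroblast markers to 2.44 to 5.39 and 2.19 to 11.2 CPM. Of the 7 endothelial markers, which summed to 0.861 to 1.72 CPM in 1-2 and 2.13 to 3.33 CPM in 2-2, KDR was called higher, from 0.0998 to 0.414 CPM to 0.654 to 1.21 CPM, though neither without the Ctr or the K3R pair nor against 1-1 (adjusted p = 0.408). Markers of neuroendocrine cells summed to 582.0 to 796.7 and 793.1 to 967.4 CPM, and 3 of the 5 tested, UCHL1, ENO2 and CHGB, were called higher. UCHL1 alone was at 547.2 to 745.3 CPM in 1-2 and 731.7 to 880.1 CPM in 2-2. UCHL1 and CHGB lost their calls without the Ctr, the WT or the K3R pair and against 1-1. CHGB was also not called without the K3Q pair (adjusted p = 0.0867) or by DESeq2 (0.106). UCHL1 was not called with RLE scaling (adjusted p = 0.0536) or the GC offset (0.104). Markers of epithelial cancer lines summed to 1550 to 2173 and 1877 to 2003 CPM. The log2 change also followed transcript GC content across 14218 genes, with Spearman correlations of 0.228, 0.408, 0.445 and -0.224 in the 4 pairs in turn, given as a description. With the GC offset 1798 of the 1798 called genes that could be fitted kept their sign, and 1666 were called again. That fit used the same libraries. The part of GC content in single changes was not tested beyond this.

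The same replicate numbers exist in A549, and the change was compared between the lines by an interaction term over the 16 batch 2 libraries. Of 18179 genes, 358 (1.97%) changed differently, 243 of them with a higher and 115 with a lower change in H1299. In A549 alone, 4 of 16101 genes (0.0248%) differed between 2-2 and 1-2. The A549 K3Q libraries of these replicates were nearly identical, which touches that count. Without that pair 5529 of 15882 (34.8%) were called in A549, and 1682 of 18027 (9.33%) in the interaction. Over 14202 genes, the log2 changes of H1299 and of A549 without K3Q had a Pearson r of 0.329 and a Spearman rho of 0.366, across genes that are not independent.

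The lists depended on that pair in the same way, since none of the ATF4, G1/S, lysosome or mitochondrial genes was called in A549 with it (0 of 36, 0 of 30, 0 of 29 and 0 of 13). Of the ATF4 and amino acid response genes, 33 of 36 were called higher in A549 without K3Q, with a median of 1.152. By the interaction with all 16 libraries 1 of them, GDF15, differed between the lines. Without the A549 K3Q pair 13 differed. The change was higher in H1299 for GDF15 and lower for 12, among them CHAC1 (interaction -1.34, adjusted p = 0.0203). Of the G1/S genes, 29 of 30 were called lower in A549 without K3Q, with a median of -0.733 against -0.354 in H1299. The interaction called 0 with the A549 K3Q pair and 10 without it, all of them with a higher change in H1299. Lysosome genes had 10 called higher and 3 lower in A549 without K3Q. The interaction called 9 with a higher change in H1299 with that pair and 10 without it. Mitochondrially encoded mRNAs had 7 called lower in A549 without K3Q. The interaction called 8 with a higher change in H1299 with that pair and 9 without it. L1CAM, a neural adhesion molecule, was at 0.0592, 7.34, 4.49 and 0.933 CPM in H1299 1-2 and 0.23, 26.5, 17.8 and 2.89 CPM in 2-2. Each line rose while the constructs overlapped, and its interaction was 2.20 on the log2 scale (adjusted p = 5.45e-05), while its change in H1299 against 1-1 was 0.74 (adjusted p = 0.106). PTX3, a secreted pentraxin, had a log2 change of -0.21 in H1299 and 4.12 in A549 (interaction -4.43, adjusted p = 5.45e-05), with 25.3 to 45.6 CPM in H1299 1-2 and 21.8 to 33.0 CPM in 2-2. CD274, the immune checkpoint ligand PD-L1, had a log2 change of -0.71 in H1299 (adjusted p = 0.0384) and of 2.23 in A549 (interaction -2.95, adjusted p = 0.00352). Its change in H1299 was called neither without the Ctr pair (adjusted p = 0.203) nor without WT or K3Q, and against 1-1 it was -0.16 (adjusted p = 0.706).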

How the data were processed

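RNA was sequenced in 24 libraries of A549 and H1299 cells, of which 8 were compared here. The deposited table holds unnormalised read counts for 59385 gene symbols in each library. FastQC, cutadapt, STAR, featureCounts and the build GRCh38 are named in the submitters' processing notes. Their versions, the strand setting and the annotation were not given in the sources used here. Vector-borne and endogenous SIRT6 reads were counted together.

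Genes were filtered with filterByExpr and scaled by TMM, and the quasi-likelihood test of edgeR 4.0.16 (R 4.3.3) was run on the counts with construct and replicate as terms, which leaves 3 residual degrees of freedom. Adjusted p-values are Benjamini-Hochberg over all genes tested, and a gene was called under 0.05. SE is the absolute log2 change over the square root of F. CPM is TMM-scaled, and principal components used log2 CPM with a prior count of 2. The same model gave 1-2 against 1-1 and A549, and an interaction compared the lines. Coordinates and promoters come from RefSeq GRCh38.p14, joined by symbol for 14617 of 16240 genes; another annotation may have been used for counting. Coordinates are 1-based.

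The rule named the 12 largest rises and falls with mean log2 CPM 1 or more and 1 direction in 4 pairs, the 3 called members with the largest change per list (or the 2 with the lowest p), the sirtuins, the 6 widest spreads and 4 interaction genes per direction. Pseudogenes, antisense and clone-named genes were left out, as were symbols without a RefSeq match outside the lists. A few named genes are given by counts alone, and LAMP1, MCOLN1, E2F1, ASNS, AARS1 and ATF4 were named after their values were seen. The comparison, the 39 gene lists and the rule were chosen with earlier results of these data known. A further list and a marker gene are not reported here.

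Alternatives were no construct block, DESeq2 1.42.0, RLE scaling, no filter on low counts, limma-voom (limma 3.58.1), all 12 H1299 libraries, 1-1 as reference and each pair left out. The GC offset and the Ctr with K3Q and WT with K3R pairs alone were chosen after seeing the data. The procedure was tested on simulated data.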

Additional observations from a re-analysis of the deposited data

Results flagged for a closer look

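Among 176 sets of 4 pair differences examined (single genes, list medians and library composition measures), 5 had 1 pair far from the other 3. Chance alone marks about 1 set in 20, so 5 of 176 is fewer than that rate gives. No p was computed for these. POP1 had a log2 difference of -1.29 in the Ctr pair against -0.75 to -0.65 in the others. The median of the ERK feedback genes was 0.412 in the Ctr pair against 0.076 to 0.124. In the K3Q pair the median was -0.157 for hypoxia and glycolysis genes, -0.16 for MHC class I antigen presentation genes and 0.191 for nuclear-retained and small noncoding RNAs, where the other pairs had 0.043 to 0.078, 0.177 to 0.211 and -0.114 to -0.08.

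The change of 2-2 against 1-2 differed between H1299 and A549 for 358 genes by the edgeR interaction. Those with the lowest p and a higher change in H1299 were L1CAM (2.20 on the log2 scale), UAP1L1 (2.27), MT-ND1 (0.90) and SLC2A3 (1.26). Those with a lower change in H1299 were PTX3 (-4.43), ZNF260 (-1.25), SNTB1 (-2.66) and CD274 (-2.95). Each of these 8 passed with the A549 K3Q pair left out as well.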

How the results depend on the processing

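The 1919 calls (1191 higher, 728 lower) became 556 (361 and 195) with no construct block, and leaving out 1 pair gave 497 to 3405 (412 to 1852 and 85 to 1553). The Ctr and K3Q pairs alone gave 1015 (747 and 268) and the WT and K3R pairs alone 5206 (2770 and 2436). Genes called lower numbered 1280 with all 12 H1299 libraries and 1358 with the GC offset. The total was 1919 with RLE scaling, 2425 without the filter, 1786 with DESeq2, 2028 with limma-voom, 2771 with the GC offset, 2685 with 12 libraries and 2044 against 1-1. Every called gene with a value kept its sign under each of these, except against 1-1 (1812 of 1919, with 823 called again) and in the Ctr and K3Q pairs alone (1852 of 1853). All these fits share libraries with the main one, so a kept sign is not an independent result. No paired analysis was possible because pairing by replicate number would need that number as a block, and it is what was compared; libraries were paired by construct instead.

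Against 1-1, G1/S genes had a median of -0.29 and 13 called lower, ATF4 and amino acid response genes 0.11 and 4 higher, heat shock genes -0.0050 and 6 lower, mitochondrial mRNAs 0.16 and 4 higher, and ribosomal proteins 45 lower. List medians that turned sign there were those of G2/M (0.085), YAP and TAZ (0.22), epithelial junction (-0.017), cholesterol (-0.35), fatty acid (-0.17), ChREBP and MondoA (-0.023), metallothionein (0.10), hypoxia and glycolysis (-0.081) and nuclear-retained RNA genes (0.001), sirtuins (-0.060) and the markers of neuroendocrine (-0.064), A549 (-0.17) and fibroblast cells (-0.57), as did ANLN (0.14), MKI67 (0.22), NUAK2 (0.057), TJP3 (-0.31), SPINT2 (-0.19), FADS2 (-0.11), KLF11 (-0.18), HSPA1B (0.61), MT1X (-0.12), CXCL2 (-0.28), OASL (-0.49), IFIT2 (-0.40), CHGB (-0.021) and UCHL1 (-0.035). Leaving out 1 pair gave 8 to 23 G1/S, 11 to 32 ATF4, 1 to 12 heat shock, 11 to 25 lysosome and 1 to 28 ribosomal protein calls. In the Ctr and K3Q pairs alone, G1/S genes had a median of -0.39 and 9 calls, lysosome genes 9, ribosomal proteins 1, and the BMP median was -0.21. In the WT and K3R pairs alone the histone median was 1.32 and ribosomal protein calls 43. Ribosomal protein calls were 39 without the filter, 40 with 12 libraries and 38 with the GC offset, under which histone genes had no value. Without the A549 K3Q pair the interaction gave 1682 genes, and leaving out 1 pair gave 1756 to 3253 calls for 1-2 against 1-1. The causes were not tested. With 4 pairs, an exact permutation test cannot go below 0.125.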
